A study of Mus musculus with 6 samples.

Results

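Histones are the proteins that package DNA, and the report follows their genes from myoblasts to myotubes. The histone genes measured here are 54 probe sets, which name 47 genes, of the 22283 probe sets on each array. Membership goes by name: a probe set is a member where the array annotation gives it 1 symbol, and that symbol is of a histone H1, H2A, H2B, H3 or H4 gene. The choice was made with earlier results of these data known. A probe set is the group of short oligonucleotides whose brightness is summarised into 1 signal. By class, 7 are linker histones, 37 are core histones (8 H2A, 13 H2B, 8 H3 and 8 H4), and 10 belong to the variants H2AX, H2AZ1, H2AZ2 and H3-3A.

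The study set C2C12 myoblasts against myotubes, with 3 arrays each. C2C12 is a mouse line of muscle precursor cells that divide as single myoblasts and fuse into multinucleated myotubes. The myotubes had been kept in 2.5% horse serum, while the labels give no culture condition or day for the myoblasts and no day for the myotubes. Total RNA was labelled with biotin and hybridised to HG-U133A arrays, whose probes were designed against human transcripts. All samples share 1 cell line, and nothing in the labels names separate cultures, so each p-value covers array-to-array spread alone, and that spread may be technical. Because the organism is given as mouse, it was not settled which species the RNA is from, and every gene name is that of the human gene a probe set was designed for. How well the probes match the RNA was not tested, so a dim probe set does not show a low mRNA level.

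Most core and linker histone genes lie in clusters, lack introns and are transcribed in S phase, when new DNA needs packing. Their mRNAs usually end in a stem-loop, bound by the protein SLBP, in place of a poly(A) tail, although some of these genes also give polyadenylated transcripts in cells that have stopped dividing. Variant histones such as H2AZ and H3-3 come from separate genes with polyadenylated mRNAs and can enter chromatin outside S phase. The sources used here do not give how the RNA was primed for labelling, so which of the 2 kinds of transcript a core histone signal came from was not tested.

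Promoters of 4 genes are shown because 3 of them belong to probe sets that were brighter in myotubes and the fourth to the histone gene with the steepest fall. They are mouse sequences of RefSeq on GRCm38.p6, matched by symbol or synonym, which found a promoter for 31 of the 47 genes. Human and mouse histone genes of one name are close relatives, not always strict counterparts. Each runs 5′ to 3′ from 250 bases before the start of the gene to 50 after it, and capitals mark the letters searched on both strands: the octamer ATTTGCAT, the CCAAT box, the TATA box TATAAA, an E2F-like site TTTNGCGC and the element TTTGAA. H1f2 lies on the plus strand at chr13:23738557-23738856, H2ac6 on the minus strand at chr13:23683910-23684209, H2bc12 on the plus strand at chr13:22035571-22035870 and H2az1 on the plus strand at chr3:137864237-137864536.
H1f2: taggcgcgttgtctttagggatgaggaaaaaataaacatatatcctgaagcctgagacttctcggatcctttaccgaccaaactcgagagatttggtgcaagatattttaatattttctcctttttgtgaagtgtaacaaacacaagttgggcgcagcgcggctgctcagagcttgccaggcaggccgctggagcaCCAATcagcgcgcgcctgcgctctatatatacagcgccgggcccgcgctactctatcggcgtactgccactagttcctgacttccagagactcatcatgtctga
H2ac6: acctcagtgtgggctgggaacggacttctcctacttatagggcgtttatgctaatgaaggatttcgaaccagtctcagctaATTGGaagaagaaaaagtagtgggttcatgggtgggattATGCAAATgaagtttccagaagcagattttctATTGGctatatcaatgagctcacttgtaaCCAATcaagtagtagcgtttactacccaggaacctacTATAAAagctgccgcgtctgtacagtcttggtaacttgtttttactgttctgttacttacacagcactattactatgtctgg
H2bc12: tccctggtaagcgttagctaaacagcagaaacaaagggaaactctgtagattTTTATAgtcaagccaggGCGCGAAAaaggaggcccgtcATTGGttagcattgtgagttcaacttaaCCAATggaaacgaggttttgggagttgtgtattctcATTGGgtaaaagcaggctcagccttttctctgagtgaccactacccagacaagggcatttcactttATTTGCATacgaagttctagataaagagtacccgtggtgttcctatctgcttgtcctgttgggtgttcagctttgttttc
H2az1: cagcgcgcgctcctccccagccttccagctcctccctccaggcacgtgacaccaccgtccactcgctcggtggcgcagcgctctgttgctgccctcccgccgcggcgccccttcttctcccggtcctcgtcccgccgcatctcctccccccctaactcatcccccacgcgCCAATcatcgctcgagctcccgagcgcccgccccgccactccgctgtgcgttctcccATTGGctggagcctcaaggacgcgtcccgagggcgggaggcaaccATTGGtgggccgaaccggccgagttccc
H2ac6 and H2bc12, genes of a core H2A and a core H2B, each hold 1 octamer, 3 CCAAT boxes and 1 TATAAA match, and H2bc12 also 1 E2F-like match. The TATAAA match begins at -32 from the start in H2ac6. In H2bc12 it begins at -198 and is on the other strand, so the 2 are not alike in place. H1f2 holds 1 CCAAT box and none of the other 4 motifs as spelled here, although the letters tatatata follow its CCAAT box. H2az1 holds 3 CCAAT boxes, of which 1, at 23, lies after the start, and none of the others. Over the 32 windows found for member genes, the octamer stood in 7 (21.9%), against 1.7% of the 32851 promoters of the table. Those 7 were 3 of 4 H2A windows and 4 of 9 H2B windows, and the octamer was in none of the 7 linker, 5 H3, 5 H4 and 2 variant windows. CCAAT stood in 28 of the 32 windows (87.5%, against 37.4% of all), TATAAA in 17 (53.1%, against 13.6%), TTTGAA in 15 (46.9%, against 17.9%) and the E2F-like letters in 3 (9.4%, against 1.4%). These matches describe letters in a window and not binding. The windows are not independent, since the genes are paralogs and 2 of the windows overlap.

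Before the histones, the arrays were set against their labels. Of 11 tested myotube markers 9 were higher in the myotube arrays and none lower. The list had a summed signal of 3631 to 14025 in myoblasts and 53921 to 60531 in myotubes. Myoblast array 1 was the brightest myoblast array for MYL11 (2311, against 36.8 and 68.7 on arrays 2 and 3) and ACTC1 (6232, against 1986 and 1872). MYOG and CKM lay within background on every array, that is, no brighter than the brightest control counted as having no added RNA. Which controls had RNA added was taken from their names. Of 5 markers of dividing cells 4 were lower, summed 16620 to 17573 against 2536 to 4043. Fibroblast markers moved too, with 8 of 10 higher and summed signals of 84049 to 157764 against 292266 to 405211. Macrophage, endothelial and adipocyte lists had 1 tested gene each and no call, and PTPRC, CD14, LYZ, CDH5, KDR, ADIPOQ and PLIN1 lay within background on every array. The part of the fibroblast genes in the results below was not tested, and in such bulk samples fewer cells of a type and less RNA per cell cannot be told apart.

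Arrays of a group did not share all their handling. All myotube arrays had 1 scan day and 1 chip lot and all myoblast arrays another scan day, so scan day and lot cannot be told apart from the group. Consecutive laboratory codes put myoblast array 1 in a series with all myotubes, and myoblast arrays 2 and 3, which correlated at r = 0.988 over the log2 values of the tested probe sets, in a second. The records name no such grouping, but chip lot divides the myoblast arrays in the same way, with array 1 in 1 lot and arrays 2 and 3 in another. Blocking on laboratory series (called the series fit below) leaves the comparison of myoblast array 1 with the 3 myotube arrays. Myoblast array 1 correlated at 0.872 and 0.881 with myoblast arrays 2 and 3. With myotube arrays 1 to 3 it correlated at 0.843, 0.841 and 0.881. The title of myoblast array 3 does not give the stage, which its description does. Controls with added RNA had a geometric mean signal of 48119 on myoblast array 1, and of 3539 and 4275 on myoblast arrays 2 and 3. On myotube arrays 1 to 3 it was 71439, 33504 and 12320. The brightest control without added RNA gave 326 and 252 on myoblast arrays 2 and 3, and 520 to 1040 on the others. The part of these differences in the results below was not tested. Probe sets with a mean signal of at least 474.5, the 40th percentile, were tested with limma on log2(signal + 196.9), two-sided, and a change is past the threshold where the Benjamini-Hochberg adjusted p over 13297 probe sets is below 0.05.

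Of the 54 histone probe sets 26, for 20 genes, were bright enough to be tested. Among these, 6 were higher in myotubes and 3 lower, while the other 17 did not pass, with 12 changes above and 5 below 0. Over all 13297 probe sets 11.4% passed, 4.96% higher and 6.44% lower. The 6 rises were in the linker gene H1-2, the H2A gene H2AC6 and the H2B genes H2BC5 (both of its probe sets), H2BC12 and H2BC12L, and the 3 falls were in the variants H2AX and H2AZ1. The groups did not overlap for 10 of the 26 in the direction of myotubes, against 17.5% of all probe sets, and for 4 in the direction of myoblasts, against 15.5%. Among the 10 are H4C7 and H4C8, which had arrays of both groups within background. The median log2 change of the 26 was 0.61 (range -1.97 to 1.49), beside 0.09 over all probe sets. In the series fit the median of the 26 was 0.16, and 3 rises and 3 falls passed, where 1.54% of all probe sets passed higher and 1.0% lower.

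**Figure D1:**
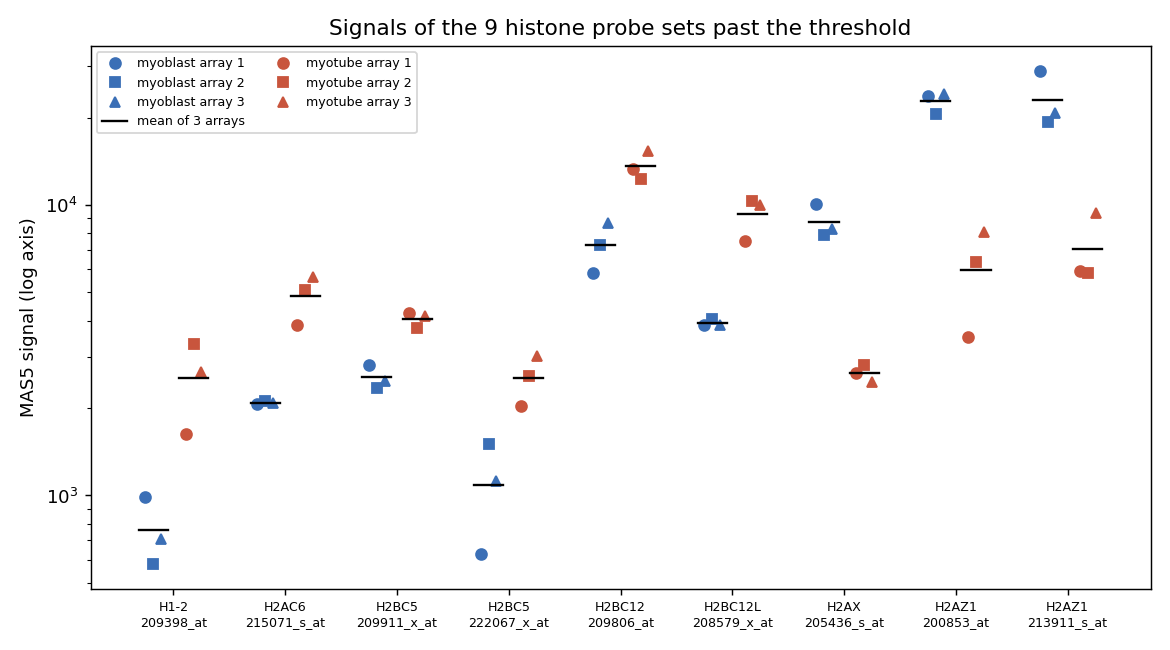
MAS5 signals on a log axis of the 9 histone probe sets past the threshold, 1 point for each of 3 myoblast arrays (blue) and 3 myotube arrays (red), with a bar at the mean of each group. The 6 rises and the 3 falls show no overlap between the groups, and the H2AZ1 probe sets fell from means of 22828 and 23024 to 5987 and 7063.

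The count of rises depended on single arrays. It was 6 with all arrays. Leaving out myotube array 1 gave 3, leaving out myotube array 2 gave 2, and leaving out myoblast array 1 gave 10. Rises over all 13297 probe sets moved the same way, from 660 to 267, 222 and 1803 in these runs. The count of histone falls was 3 with any single array left out other than myoblast array 1, without which it was 6. Falls over all probe sets were 856 with all arrays and 1664 without myoblast array 1. Treating chip lot as a random block left 2 rises, H2AC6 and H2BC12L, and the 3 falls. The 9 probe sets past the threshold kept their direction in every alternative run. With quantile normalization the median over all probe sets was -0.01 in place of 0.09, a shift of 0.10, and no tested histone probe set turned its sign under it or under 75th percentile scaling.

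Linker histones bind the DNA between nucleosomes and help to fold the fibre. Of 7 linker genes 3 were tested, and 1 rose. Signals of the H1-2 probe set (209398_at) were 988, 581 and 708 on the myoblast arrays and 1628, 3323 and 2655 on the myotube arrays, in the order of arrays 1 to 3 used throughout. Every myotube array was brighter than every myoblast array, and myotube array 1 was the dimmest of its group. H1-2, a linker histone of the large cluster, rose 2.80-fold, from 759 ± 208 to 2535 ± 854 (SD, n = 3), a log2 change of 1.49 ± 0.31 (SE; limma adjusted p = 0.0142). Folds here are on the log2(signal + 196.9) scale, which understates the change of dim genes. The call was lost without myotube array 2 (adjusted p = 0.0808) and in the series fit (log2 1.15, adjusted p = 0.178).

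H1-3, another linker histone of the cluster, spread widely within the myoblast group. It gave (214537_at) 1138, 122 and 181 on the myoblast arrays and 1036, 370.0 and 717 on the myotube arrays. Myoblast array 1 was the brightest of all 6, and myoblast arrays 2 and 3 and myotube array 2 were within background. Its log2 change was 0.66 ± 0.57 (limma adjusted p = 0.451, unadjusted 95% interval -0.61 to 1.93, as are the intervals below), and in the series fit -0.63. H1-10, a linker histone whose gene stands alone, gave (204805_s_at) 1592, 1947 and 2118 on the myoblast arrays and 1294, 311 and 1399.8 on the myotube arrays. All 3 myoblast arrays were brighter than all 3 myotube arrays, and myotube array 2 was within background. The change of H1-10, -0.96 ± 0.41, did not pass (limma adjusted p = 0.15, 95% interval -1.87 to -0.05), and was -0.53 with dim signals raised. The remaining linker genes, H1-1, H1-4, H1-5 and the testis form H1-6, were between 14.2 and 443 and within background on all 6 arrays.

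Histone H2A pairs with H2B in the outer faces of the nucleosome. Of 8 core H2A probe sets 3 were tested, 1 of them rose, and the median change was 0.84. In the series fit none of the 3 passed and the median was -0.04. H2AC6 (215071_s_at), the gene whose promoter is shown above, gave 2063, 2108 and 2076 on the myoblast arrays and 3864, 5088 and 5661 on the myotube arrays. The 3 myoblast arrays lay within a narrow band and the dimmest myotube array was well above it. A probe set shared by H2AC18 and H2AC19 (218280_x_at) gave nearly the same signals on myotube arrays 1 and 2, 3867 and 5088, and 4856 on array 3. Whether these 2 probe sets measure separate transcripts was not tested. H2AC6 rose 2.20-fold, from 2082 ± 23.4 to 4871 ± 918 (SD, n = 3), a log2 change of 1.14 ± 0.20 (limma adjusted p = 0.00688). This call held without any single array (largest adjusted p = 0.0414), and in the series fit the change was as large, 1.15, with adjusted p = 0.0665.

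Neither of the other 2 tested H2A genes passed. H2AC14 (208583_x_at) gave 2133, 701 and 770.5 on the myoblast arrays and 2398, 2168 and 1699.5 on the myotube arrays. Myoblast array 1 was as bright as the myotubes, and arrays 2 and 3 of its group were far dimmer. The log2 change of H2AC14 was 0.84 ± 0.36 (limma adjusted p = 0.149, 95% interval 0.04 to 1.64), and -0.04 in the series fit. H2AC25 (221582_at), named after its values had been seen, gave 1890.3, 1062 and 929.6 on the myoblast arrays and 3033, 435 and 1884 on the myotube arrays. Myotube array 2 was within background. The change was 0.17 ± 0.52 (limma adjusted p = 0.836), and 0.50 with that array raised to its background limit. The 5 H2A probe sets too dim to test had signals of 6.00 to 594.

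Rises were most frequent among the H2B genes, in counts: 4 of 7 tested probe sets, of 13 in all, with 6 of the 7 brighter on every myotube array than on any myoblast array. Over all probe sets the shares were 4.96% and 17.5%. The median H2B change was 0.79, and 0.85 in the series fit, where 3 of the 7 passed, beside 1.54% of all probe sets. Of these 7 probe sets 5 are of the kind marked x_at, which share sequence between genes. Coding sequences of H2B paralogs are nearly identical, so how the signal divides among H2B genes is uncertain and the 7 are not separate pieces of evidence.

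H2BC12L (208579_x_at), an H2B gene outside the main cluster, gave 3877, 4047 and 3869.6 on the myoblast arrays and 7543, 10351 and 9968 on the myotube arrays. The dimmest myotube array was far above the brightest myoblast array, and the myoblast arrays were close together. H2BC12L rose 2.28-fold, from 3931 ± 101 to 9287 ± 1523 (SD, n = 3), or 1.19 ± 0.18 on the log2 scale (limma adjusted p = 0.00383). It passed without any single array (largest adjusted p = 0.0293) and in the series fit (log2 1.21, adjusted p = 0.0406).

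The H2BC12 probe set (209806_at) is not marked x_at, but whether it measures H2BC12 alone was not tested. It gave 5813, 7306 and 8680.2 on the myoblast arrays and 13308, 12286 and 15346 on the myotube arrays. No myotube array came within the myoblast range. H2BC12 rose 1.87-fold, from 7266 ± 1434 to 13647 ± 1558 (SD, n = 3), with a log2 change of 0.90 ± 0.20 (limma adjusted p = 0.0182). In the series fit it was 1.20 (adjusted p = 0.0278), whereas leaving out myoblast array 2, myotube array 1 or myotube array 2 ended the call (up to adjusted p = 0.0657).

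The H2B gene H2BC5 had 2 probe sets, and both rose. One (222067_x_at) gave 629, 1505 and 1125 on the myoblast arrays and 2028, 2569 and 3017 on the myotube arrays. Myoblast array 1 was the dimmest and lay within background. This probe set of H2BC5 rose 2.20-fold, from 1086 ± 439 to 2538 ± 495 (SD, n = 3), a log2 change of 1.14 ± 0.30 (limma adjusted p = 0.0369), and 1.71 in the series fit (adjusted p = 0.0329). The second (209911_x_at) gave 2812, 2353 and 2483 on the myoblast arrays and 4256, 3759.9 and 4156 on the myotube arrays. Its groups were apart by less, and it rose 1.55-fold, from 2549 ± 236 to 4058 ± 263 (SD, n = 3), a log2 change of 0.63 ± 0.18 (limma adjusted p = 0.0477). Both H2BC5 calls were fragile: the first was lost without myoblast array 3 or any one myotube array (up to adjusted p = 0.125), the second without any one array but myoblast array 1 (up to 0.227). Averaging myoblast arrays 2 and 3 as 1 sample ended both (limma adjusted p = 0.0544 and 0.217), and the series fit the second (log2 0.50, adjusted p = 0.296).

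The 3 H2B probe sets that did not pass had changes above 0. H2BC21 (202708_s_at), an H2B gene of the small cluster, gave 939, 1049 and 989 on the myoblast arrays and 1636, 2130.2 and 1826 on the myotube arrays, with no overlap, and a log2 change of 0.79 ± 0.24 (limma adjusted p = 0.0592). H2BC6 (208527_x_at) also had no overlap, with a change of 0.59 ± 0.21 (adjusted p = 0.0925). H2BC9 (208546_x_at) gave 695, 798 and 693 on the myoblast arrays and 1708, 237 and 1407 on the myotube arrays. Myotube array 2 and myoblast array 1 were within background there, so their rank is not read, and the other 2 myotube arrays were the brightest. Its change was 0.25 ± 0.51 (limma adjusted p = 0.758), and 0.65 with signals within background raised to that limit. These 3 were named after their values had been seen, and the 6 H2B probe sets too dim to test had signals of 10.6 to 665.

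H3 and H4 form the inner core of the nucleosome. The probe sets of their core genes were mostly dim here, which does not rank their mRNA levels against those of H2B. Of 8 H3 probe sets 1 was tested and of 8 H4 probe sets 3, and none passed, where 11.4% of all probe sets did. H3C6 (214616_at) gave 1573, 661 and 753 on the myoblast arrays and 2903, 1612 and 1109 on the myotube arrays. The groups overlapped, with myoblast array 1 close to myotube array 2. The H3C6 change was 0.78 ± 0.38 (limma adjusted p = 0.196, 95% interval -0.07 to 1.63) and 0.13 in the series fit.

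The 3 tested H4 genes had log2 changes between 0.86 and 1.04, none past the threshold. H4C8 (208180_s_at) gave 220.2, 296 and 292 on the myoblast arrays and 554, 979 and 802 on the myotube arrays. Only 1 array of each group rose above background, so the order of the arrays is not read. The measured change of H4C8 was 1.04 ± 0.38 (limma adjusted p = 0.101), and 0.67 with dim signals raised. H4C7 (208551_at) gave 424, 257 and 288 on the myoblast arrays and 998, 1056 and 436 on the myotube arrays. Myoblast arrays 1 and 2 and myotube array 3 were within background, and the measured change was 0.93 ± 0.41 (limma adjusted p = 0.156), or 0.64 with dim signals raised. H4C4, named after its values had been seen, had a change of 0.86 ± 0.44 (adjusted p = 0.213), and its groups overlapped. Unadjusted 95% intervals were 0.20 to 1.89 for H4C8 and 0.02 to 1.84 for H4C7. The 7 H3 and 5 H4 probe sets too dim to test had signals of 8.60 to 583 and 9.69 to 713.

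**Figure D2:**
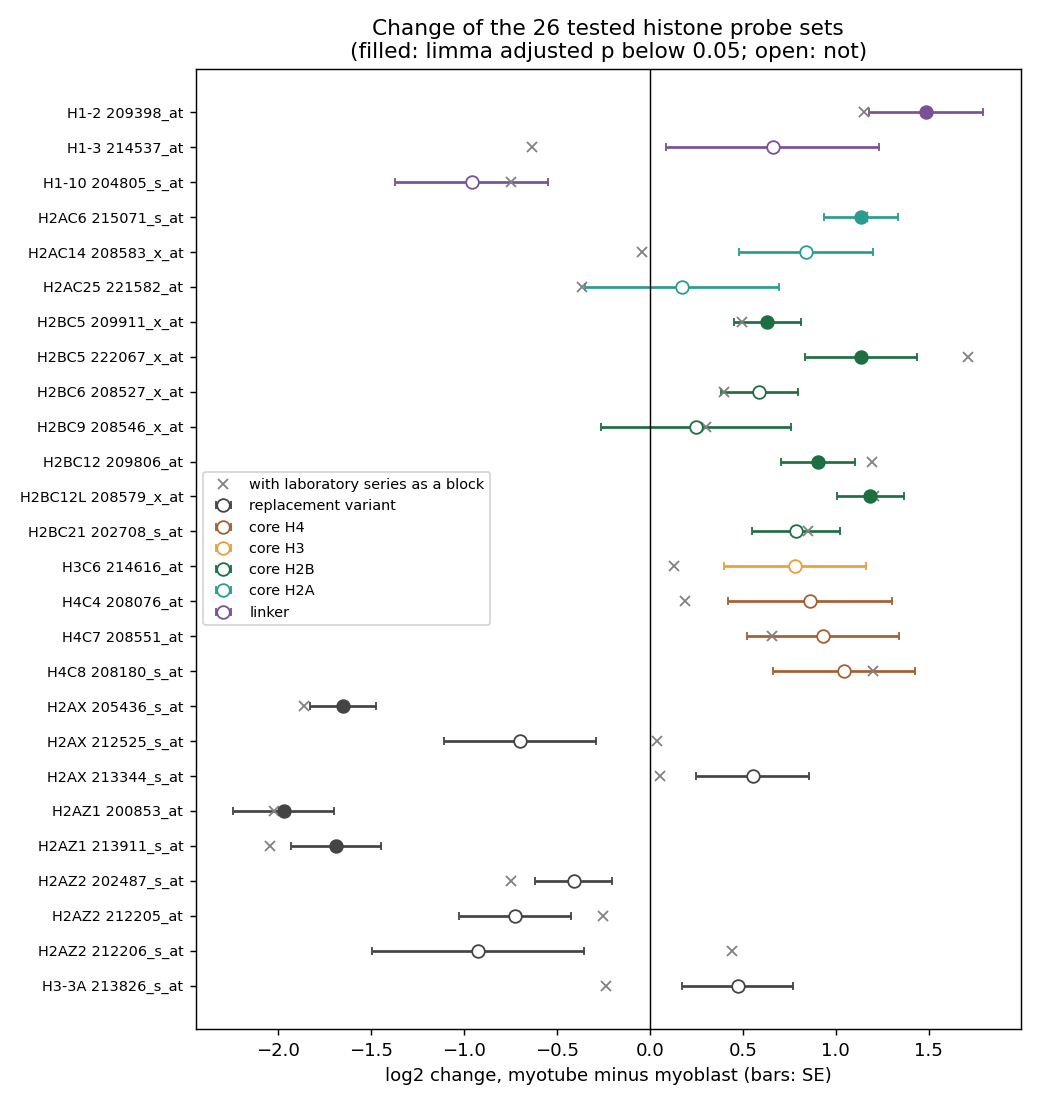
Log2 change (myotube minus myoblast) with its SE for the 26 tested histone probe sets, grouped by class and colour, filled where the limma adjusted p is below 0.05. Crosses give the change in the fit blocked on laboratory series, which ran from -0.37 to 1.71 for the tested core probe sets. The core H2A, H2B, H3 and H4 points of the fit without a block all lie above 0. The 3 filled points below 0 are H2AX and H2AZ1.

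All 3 falls were among the variants. Of 10 variant probe sets 9 were tested, 3 fell and 6 did not pass, beside 6.44% of all probe sets lower. The median change was -0.73, against 0.09 over all probe sets, and -0.25 in the series fit, where the same 3 falls passed. H2AZ1, the variant H2A placed at promoters and exchanged by remodelling complexes, had 2 probe sets, both past the threshold. One (200853_at) gave 23652, 20633 and 24199.6 on the myoblast arrays and 3524, 6363 and 8075 on the myotube arrays. Its dimmest myoblast array was far above its brightest myotube array. That H2AZ1 signal fell 3.92-fold, from 22828 ± 1921 to 5987 ± 2299 (SD, n = 3), a log2 change of -1.97 ± 0.27 (limma adjusted p = 0.00234).

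The second H2AZ1 probe set (213911_s_at) gave 29039, 19359 and 20674 on the myoblast arrays and 5940.1, 5851 and 9398 on the myotube arrays. Again the groups stood far apart, and myoblast array 1 was the brightest and myotube array 3 the brightest of its own group. It fell 3.22-fold, from 23024 ± 5251 to 7063 ± 2022 (SD, n = 3), a log2 change of -1.69 ± 0.24 (limma adjusted p = 0.00276). Both H2AZ1 probe sets passed without any single array (adjusted p up to 0.0229 and 0.0308) and in the series fit (log2 -2.02 and -2.04, adjusted p = 0.0342 and 0.00966).

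H2AZ2, the close paralog of H2AZ1, had 3 tested probe sets, and none passed. One (202487_s_at) gave 10191, 6526 and 7748 on the myoblast arrays and 5225, 5958 and 6904 on the myotube arrays. Myotube array 3 lay above myoblast array 2, so the groups overlapped. Its log2 change was -0.41 ± 0.21 (limma adjusted p = 0.207, 95% interval -0.87 to 0.05). Another H2AZ2 probe set had a log2 change of -0.73 ± 0.30 (212205_at, adjusted p = 0.141). For the last (212206_s_at) all 3 myotube arrays and myoblast array 1 were within background, so its measured change of -0.92 ± 0.57 (limma adjusted p = 0.293) rests on unmeasured levels, and with dim signals raised it was -0.43. Without myoblast array 1 both of these passed as falls, while the series fit, which rests on that array, gave -0.25 and 0.44. That H2AZ1 fell and H2AZ2 did not pass does not show that they differ, a difference that was not tested.

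H2AX is the H2A form that is phosphorylated beside DNA breaks, and 1 of its 3 tested probe sets passed. That probe set (205436_s_at) gave 10078, 7877 and 8249 on the myoblast arrays and 2634, 2821 and 2463 on the myotube arrays. The myotube arrays were within a narrow band, well under every myoblast array. It fell 3.14-fold, from 8734 ± 1178 to 2639 ± 179 (SD, n = 3), a log2 change of -1.65 ± 0.18 (limma adjusted p = 0.000663), and it passed without any single array (up to 0.00886) and in the series fit (log2 -1.86, adjusted p = 0.00521).

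Another H2AX probe set (213344_s_at) had the brighter mean in myotubes, with 1450.4, 792 and 776 on the myoblast arrays and 1939.5, 1320.0 and 1349 on the myotube arrays. Its groups overlapped through myoblast array 1. The change was 0.55 ± 0.30 (limma adjusted p = 0.241, 95% interval -0.12 to 1.23), an interval that does not reach the change of -1.65 of the first. The next (212525_s_at) was within background on all 3 myotube arrays and on myoblast array 1. Its measured change of -0.70 ± 0.41 (limma adjusted p = 0.268) was -0.45 with dim signals raised and 0.04 in the series fit. The fourth H2AX probe set (212524_x_at) was too dim to test, with 132, 25.6 and 24.5 on the myoblast arrays and 209, 471 and 51.1 on the myotube arrays. Which of the 4 follows H2AX mRNA was not tested, since no probe sequences were used here.

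**Figure D3:**
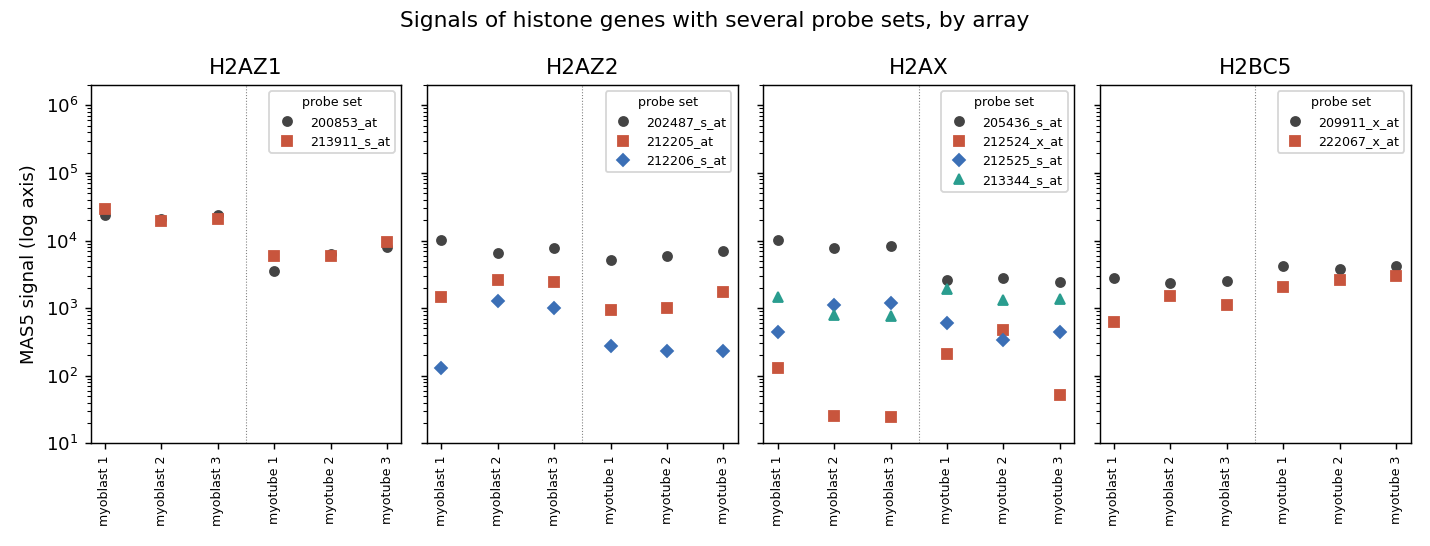
MAS5 signals on a log axis, by array, of the 4 histone genes with more than 1 probe set, 1 marker per probe set and array. Both H2AZ1 probe sets drop together at the dotted line between myoblasts and myotubes, both H2BC5 probe sets rise, and of the 4 H2AX probe sets 205436_s_at drops while 213344_s_at does not.

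H3-3A, the replacement form of H3 that is deposited independently of replication, had 1 probe set with a single symbol. It (213826_s_at) gave 3464, 1825 and 1325 on the myoblast arrays and 3112, 2629.8 and 3026 on the myotube arrays. Myoblast array 1 was the brightest of all 6, so the groups overlapped. The change was 0.47 ± 0.30 (limma adjusted p = 0.303), -0.23 in the series fit.

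The 28 histone probe sets below the filter complete the account. Their signals ran from 6.00 to 713, and 26 of the 28 were within background on all 6 arrays, where the order of signals is not read. Just below the filter stood H4C1 with a mean of 393.7, and just above it H4C8 with 523.8.

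Genes that serve histone supply were set beside the histones, each by its brightest probe set. Among all 8144 genes so represented 5.43% were higher and 6.74% lower. Of 12 tested genes for histone mRNA synthesis and 3′ end processing 1 rose, 3 fell and 8 did not pass, with a median of -0.31 against 0.12 over all tested genes. SLBP (206052_s_at), which binds the stem-loop of histone mRNA, gave 2611, 4307 and 5024 on the myoblast arrays and 1271, 1329 and 2209 on the myotube arrays. Each myotube array was dimmer than each myoblast array. SLBP fell 2.31-fold, a log2 change of -1.21 ± 0.29 (limma adjusted p = 0.0244).

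NPAT (211584_s_at), the coactivator of histone gene transcription, gave 357, 642 and 526 on the myoblast arrays and 1754, 1669 and 1003 on the myotube arrays. The groups were apart, and myoblast array 1 was within background. NPAT rose, by 1.23 ± 0.33 (limma adjusted p = 0.039). CCNA2, the S phase and G2 cyclin, fell, with a change of -1.52 ± 0.36 (adjusted p = 0.0238), as did the transcription factor gene YY1 (-0.68 ± 0.20, adjusted p = 0.0492). No gene of this list passed once any one of myoblast arrays 2 and 3 and myotube arrays 1 and 2 was left out, and none passed in the series fit (limma, log2 -0.68 for SLBP, 1.56 for NPAT, -0.98 for CCNA2 and -0.34 for YY1).

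Histone chaperones carry histones to DNA, and 5 of 26 tested genes fell and none rose, while 21 did not pass; the median was -0.37. NASP (201970_s_at), which holds H3, H4 and linker histones, gave 2700.4, 2628 and 2686 on the myoblast arrays and 127, 181 and 499 on the myotube arrays. The myoblast arrays were nearly level, and all 3 myotube values were within background. NASP was at least 3.06-fold lower with dim signals raised to the background limit (measured log2 change -2.71 ± 0.34, limma adjusted p = 0.00154). HJURP, which places the centromeric H3 form, was likewise within background on all myotube arrays, at least 1.82-fold lower (measured log2 -2.16 ± 0.33, limma adjusted p = 0.00373), and with dim signals raised its call was lost (adjusted p = 0.0566).

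ANP32E (221505_at), a chaperone that removes H2AZ from chromatin, gave 3410.2, 5121 and 4720.4 on the myoblast arrays and 588, 894 and 1200.0 on the myotube arrays. The groups were far apart, and 1 of the 3 myotube arrays was above background. ANP32E fell, with a measured log2 change of -2.10 ± 0.27 (limma adjusted p = 0.00163). The acetyltransferase gene HAT1 (-1.16 ± 0.27, adjusted p = 0.023) and the FACT subunit gene SSRP1 (-0.73 ± 0.20, adjusted p = 0.0418) also fell. Without any one of myoblast arrays 2 and 3 and myotube arrays 1 and 2 the count of falls was 3 in place of 5, since HAT1 and SSRP1 no longer passed. The series fit also ended these 2 calls (limma, log2 -0.68 and -0.84, adjusted p = 0.28 and 0.128), kept those of NASP, HJURP and ANP32E, and passed CHAF1A (adjusted p = 0.0479) and NPM1 (adjusted p = 0.0265) as falls.

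S phase genes fell in larger number: 13 of 19 tested, none higher, with a median of -1.63. Among them were RRM2, which makes deoxynucleotides (-2.85 ± 0.20, limma adjusted p = 0.000138), TYMS, which makes thymidylate (-1.88 ± 0.18, adjusted p = 0.000459), and MCM7, a subunit of the replicative helicase above background on 1 of 3 myotube arrays (-2.63 ± 0.28, adjusted p = 0.000596). Leaving out single arrays gave 10 to 13 falls and no rise. In the series fit 5 of the 19 passed as falls. Beside these values stand the 14 tested core H2A, H2B, H3 and H4 probe sets, of which 5 rose and none fell, with changes of 0.17 to 1.19. Leaving out single arrays gave 2 to 8 rises among them and no fall. There were 2 without myotube array 1 or 2, 3 without myoblast array 2 or 3 or myotube array 3, and 8 without myoblast array 1. Rises over all 13297 probe sets numbered 222 to 1803 in these runs. In the series fit 3 of the 14 rose, with changes from -0.37 to 1.71. The difference between the S phase genes and the core histone genes was not tested.

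**Figure D4:**
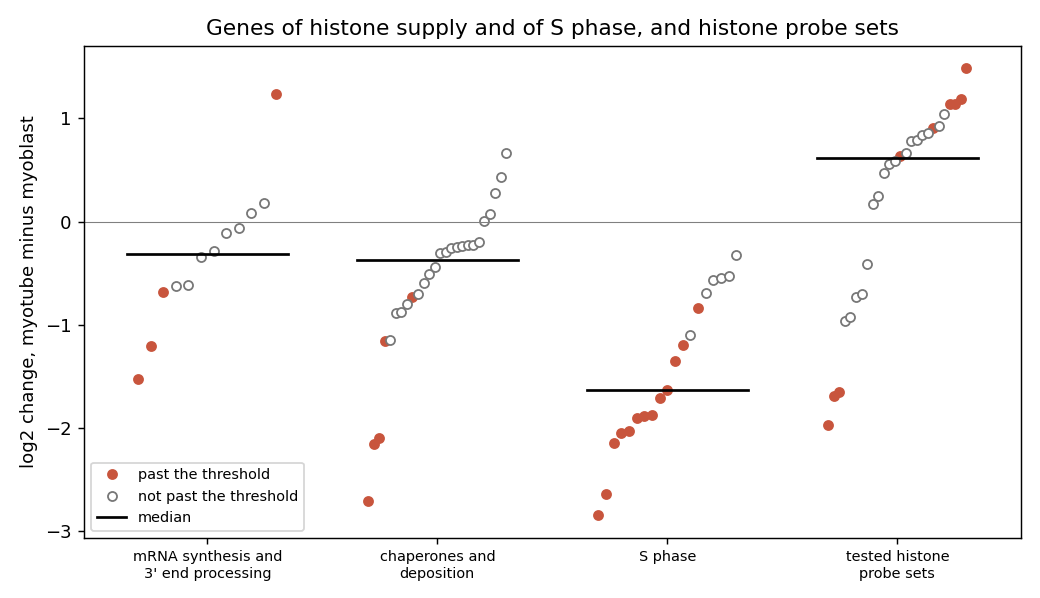
Log2 change (myotube minus myoblast) of each tested gene for histone mRNA synthesis and 3′ end processing, for chaperones and deposition and for S phase, and of the 26 tested histone probe sets, sorted within each column. Filled points passed the threshold and the bar is the median, at -0.31, -0.37, -1.63 and 0.61.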

How the data were processed

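Each deposited value is an intensity on a linear scale, computed by the authors with MAS5 as the submitters' processing notes list it, with no version stated. Global scaling makes a signal relative to its array. Controls (68 probe sets) and 54 sex-linked probe sets were left out. The platform annotation gave 19065 of the others 1 symbol before the sex-linked were dropped, 1043 several and 2107 none. Groups came from the labels; run records number the 3 myoblast arrays differently, and numbers were taken from titles.

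Values were taken as log2(signal + 196.9), the 25th percentile of the table, which understates changes of dim genes. A mean under the 40th percentile (474.5) left a probe set out, and the groups were compared with limma 3.58.1 in R 4.3.3 (lmFit and eBayes with trend; two-sided tests; statmod 1.5.0 for the random block), adjusted by Benjamini-Hochberg over 13297 probe sets and a threshold of 0.05. Folds are on that log2 scale. Within background means at or below an array's highest signal among 27 controls counted as having no added RNA (251.5 to 1040.2 by array). Controls were sorted into those with and without added RNA by their probe set names. On simulated data of 13297 probe sets, the test found 35 of 200 true log2 changes of 1 (6 false calls) and 181 of 200 true changes of 2 (10 false calls). The simulated arrays had independent noise and no series, lot or scan day, so these counts need not hold for the real arrays.

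Named with values were every member past the threshold, every tested linker and variant, genes with several tested probe sets, and for core classes with fewer than 2 calls the 2 tested members with the smallest p. The remaining tested core members were named after their values had been seen. For the supply lists, genes past the threshold were named, and of S phase the 3 with the smallest p. The members and lists were chosen with earlier results of these data known. Alternatives were pseudocount, filter, scaling, eBayes setting, blocks by replicate number, chip lot and laboratory series, a 2-fold minimum, 1 probe set per gene, dim signals raised, and leaving out arrays; a filter on the mean of log2 values was chosen after seeing the data. Replicate numbers are not stated to pair the arrays. Same-numbered arrays' deviations correlated at 0.25, -0.18 and 0.38, and differently numbered ones at -0.44 to 0.42, which does not decide it. Figures were drawn with matplotlib 3.10.9.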

Additional observations from a re-analysis of the deposited data

How the results depend on the processing

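Over 23 settings, the 9 histone probe sets past the threshold gave 196 comparisons, of which 162 stayed past it, 34 kept the direction without passing and 0 reversed. The 3 falls passed in every setting. Of 362 comparisons of the other 17 members, 9 came to pass and 17 reversed. The 1516 calls over all probe sets became 919 with eBayes without trend, 2312 with the replicate block, 401 with chip lot as a random block, 338 with the series block, 174 in the first series alone, 576 with myoblast arrays 2 and 3 averaged, and 493 to 3467 with 1 array left out. The 9 histone calls became 5 with chip lot, 4 in the first series alone and 5 to 16 with 1 array left out; the 6 rises became 2, 1 and 2 to 10, and 3 with the series block, and the 3 falls 3 to 6 with 1 array left out. The replicate block, whose numbers are not stated to pair the arrays, kept 6 rises and 3 falls. With the first series alone, 1 myoblast array stands for its group and its variance is taken from the myotubes; log2 changes there equal those of the series block: H1-3 -0.63, H2AC14 -0.04, H2AC25 -0.37, H2AX 212525_s_at 0.04, H2AZ2 212206_s_at 0.44 and H3-3A -0.23, each reversed. With 1 array left out, the change of H2AC25 ran from -0.32 to 0.85 and of H2BC9 from -0.15 to 0.92. The causes were not tested. Signals within background and 3 arrays a group limit what could be called.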

Other observations

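Histone probe sets with several annotated symbols, and variants outside the naming rule, gave further values. Of 8 tested probe sets shared between H3-3 genes and other symbols, 3 were lower in myotubes past the threshold, beside 6.44% of all probe sets: 211999_at (log2 -1.16 ± 0.26, limma adjusted p = 0.019), 209069_s_at (-0.91 ± 0.25, adjusted p = 0.0428) and 200080_s_at (-0.62 ± 0.17, adjusted p = 0.0418). The series fit ended the calls of 211999_at (adjusted p = 0.0759) and 200080_s_at (0.12) and kept that of 209069_s_at (0.0258), and each call was lost without myotube array 1 or 2. The call of 209069_s_at was also lost without myoblast array 2 or 3, and that of 200080_s_at without any one array but myoblast array 1. Another of the shared H3-3 probe sets, 208755_x_at, had a change of 0.27 ± 0.25 (limma adjusted p = 0.49), so the H3-3 probe sets did not all point one way. For a probe set shared by H2AC18 and H2AC19, 218280_x_at, signals were 2516, 2620.2 and 2649 on the myoblast arrays and 3867, 5088 and 4856 on the myotube arrays, higher by 0.77 ± 0.19 (limma adjusted p = 0.025), a call lost in the series fit (adjusted p = 0.129) and without myoblast array 2, myoblast array 3 or myotube array 2. A probe set shared by several H2B genes, 208490_x_at, rose by 0.83 ± 0.20 (limma adjusted p = 0.028), a call lost in the series fit (adjusted p = 0.157) and without any one array but myoblast array 1. One shared by H4 genes, 205967_at, had a change of 0.41 ± 0.36 (adjusted p = 0.453).

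CENPA, the H3 form of centromeres (210821_x_at), fell, from 1719.8 ± 195 to 759 ± 155 (SD, n = 3), a log2 change of -1.01 ± 0.27 (limma adjusted p = 0.0365; 0.16 in the series fit), with 2 of 3 myotube arrays within background. MACROH2A1, the H2A form with a large extra domain, had 3 tested probe sets, of which 207168_s_at fell (log2 -0.80 ± 0.21, limma adjusted p = 0.0346; 0.331 in the series fit), while 214500_at and 214501_s_at had changes of -0.67 ± 0.39 and -0.01 ± 0.22 and did not pass. The calls of 210821_x_at and 207168_s_at were lost without any one of myoblast arrays 2 and 3 and myotube arrays 1 and 2. Groups of 3 arrays are too small for a test of outlying arrays.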
